A study of Homo sapiens with 13 samples.

Results

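The 9 genes described here encode proteins that cut extracellular matrix or hold such cutting in check: the proteases CTSL, PLAU and MMP14, the protease receptor PLAUR, the inhibitors TIMP1, TIMP2, TIMP3 and SERPINE2, and the matrix proteoglycan SPOCK1. They were taken by symbol, and all 9 were found in the bulk table of 57820 gene identifiers and in the single-cell table of 15005 genes. The genes were chosen by their function and by results already known from both comparisons, among them lower CTSL, SERPINE2, TIMP3 and SPOCK1 in the KMT5C tumours and lower SPOCK1 in the RKIP tumours. Their differences between arms are therefore given as a description, with no p-value.

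Tumour cells remodel matrix with a small set of enzyme systems. The urokinase PLAU, bound to its receptor PLAUR on the cell surface, turns plasminogen into plasmin, and SERPINE2 inactivates such serine proteases. MMP14, a metalloproteinase anchored in the plasma membrane, cuts collagen and activates MMP2 in a complex that includes TIMP2, while the TIMP proteins bind and block the metalloproteinases. CTSL is a cysteine protease of lysosomes that can also be secreted, and SPOCK1 (testican-1) is a secreted proteoglycan with a domain that inhibits CTSL and that has been described as acting on metalloproteinase activation and on invasion.

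All tumours were grown from BM1, a subline of the MDA-MB-231 breast cancer cells, by injecting 1000000 cells orthotopically (mammary fat pad) into athymic nude mice. The bulk arms were 5 tumours of vector control cells (CTRL) and 5 of cells with lentiviral overexpression of human KMT5C, the writer of the repressive histone mark H4K20me3, made with an EF1a-promoter vector and hygromycin selection and taken 4 weeks after implantation. The single-cell arms were 3 CTRL tumours and 3 tumours of cells expressing RKIP (the protein of PEBP1, an inhibitor of RAF-MEK-ERK signalling) with the substitution S153E, taken 3 weeks after implantation, dissociated and depleted of mouse and dead cells. The labels do not say whether a stable line was 1 clone or a pool, so a difference between lines that preceded the construct cannot be told apart from its effect. They describe separate tumours within an arm, grown from the same stable cells.

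The bulk libraries held 37050750 to 49536763 counts, and the single-cell tumours 247 to 274 cells with 19516061 to 34568923 counts in all. KMT5C itself was 8.86 ± 1.52 CPM (counts per 1000000 counts of the scaled library) in the control arm and 122.9 ± 20.2 CPM in the KMT5C arm (SD, n = 5). The rat Pebp1 transgene was 0, 0.608 and 0.295 CPM in single-cell CTRL tumours 1, 2 and 3 and 11.9, 205.2 and 126 CPM in RKIP tumours 1, 2 and 3. Defining traits of MDA-MB-231 were present, with VIM at 5710 to 8250 CPM in the bulk tumours and CDH1 at 0 to 0.0669 CPM. Markers of host tissue were also counted in the bulk tumours. Of 12 skeletal muscle markers tested, 6 were called higher in the KMT5C arm, beside 1.06% of all genes. The 15 muscle markers measured summed to 23.9 to 31.5 CPM in CTRL and 37.2 to 65.0 CPM in KMT5C tumours. None of the 15 was at 0, and 6 had a mean under 1 CPM. Leukocyte markers summed to 129 to 178 CPM in CTRL and 96.0 to 119 CPM in KMT5C tumours, with TYROBP and S100A8 at 0 throughout and 8 of the 12 at a mean under 1 CPM. Endothelial markers summed to 144 to 187 and 123 to 142 CPM. Of 7 leukocyte markers tested 2 were called lower, and of 7 endothelial markers 1, beside 1.9% of all genes. Fibroblast markers, with 0 of 7 called, summed to 337 to 902 CPM in CTRL and 431 to 1020 CPM in KMT5C tumours. In the single-cell CTRL tumours, depleted of mouse cells, 3 leukocyte markers still summed to 99.0 to 159 CPM. There 3 muscle markers summed to 14.1 to 25.7 CPM and 4 endothelial markers to 25.4 to 53.0 CPM. These sums cover fewer markers than the bulk sums and come from a separately scaled assay. Whether the marker counts came from host or tumour cells was not tested. The part of these marker differences in the results was examined for muscle alone, and for the others was not tested. In bulk tissue, fewer cells of a type and less RNA per cell cannot be told apart.

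The starts of genes that were lower in the KMT5C tumours are shown first, to let their base composition be compared. RefSeq windows of 300 bases (250 before and 50 after a start, GRCh38.p14) were found for 7 of the 9 genes, in 9 windows. None was found for TIMP2 or for SPOCK1, which was also lower, so SPOCK1 is not part of this comparison. The lines below give the window of CTSL on chromosome 9, that of TIMP3 on chromosome 22 and both windows of SERPINE2 on chromosome 2, 5′ to 3′ on the strand of the gene. Capitals mark GC boxes (GGGCGG, the motif of SP1-family factors, searched on both strands, so that CCGCCC also counts).
CTSL, chr9:87725869-87726168, plus strand: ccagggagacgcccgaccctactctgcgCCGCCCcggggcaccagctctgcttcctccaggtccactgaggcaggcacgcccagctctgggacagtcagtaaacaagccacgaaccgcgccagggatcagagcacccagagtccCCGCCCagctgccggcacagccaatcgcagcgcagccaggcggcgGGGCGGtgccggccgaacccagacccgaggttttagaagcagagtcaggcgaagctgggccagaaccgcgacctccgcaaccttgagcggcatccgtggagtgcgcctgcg
TIMP3, chr22:32801455-32801754, plus strand: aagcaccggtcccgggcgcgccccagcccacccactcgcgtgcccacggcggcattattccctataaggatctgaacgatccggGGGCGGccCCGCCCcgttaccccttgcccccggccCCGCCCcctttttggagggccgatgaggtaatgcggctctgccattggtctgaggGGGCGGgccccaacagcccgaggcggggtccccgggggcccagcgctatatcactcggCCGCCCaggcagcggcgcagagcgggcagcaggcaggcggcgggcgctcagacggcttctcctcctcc
SERPINE2, chr2:224038591-224038890, minus strand: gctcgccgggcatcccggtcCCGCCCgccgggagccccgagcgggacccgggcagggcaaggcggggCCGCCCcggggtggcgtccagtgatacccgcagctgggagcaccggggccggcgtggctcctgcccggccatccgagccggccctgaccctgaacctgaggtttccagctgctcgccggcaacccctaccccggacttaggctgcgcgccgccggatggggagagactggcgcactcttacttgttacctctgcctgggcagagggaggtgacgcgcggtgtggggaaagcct
SERPINE2, chr2:224031429-224031728, minus strand: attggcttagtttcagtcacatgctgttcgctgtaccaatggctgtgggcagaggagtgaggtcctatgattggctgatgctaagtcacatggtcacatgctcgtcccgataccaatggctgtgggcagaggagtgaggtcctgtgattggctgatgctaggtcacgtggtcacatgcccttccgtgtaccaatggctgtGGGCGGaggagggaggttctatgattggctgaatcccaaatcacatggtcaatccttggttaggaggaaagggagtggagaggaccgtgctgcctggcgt

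The TIMP3 window held 5 GC boxes, that of CTSL 3, the first SERPINE2 window 2 and the second 1. A GC box was found in 45% of the 35116 windows of all genes. The windows of TIMP3 (72.7% G and C, 31 CG pairs), of CTSL (69% and 27) and of SERPINE2 at the first start (73.7% and 31) were richer in CG pairs than the median window, which had 58.7% G and C and 14 CG pairs. The second SERPINE2 window had 54% and 8. Neither trait was limited to the lower genes: 1 of the 2 PLAU windows had 70% G and C, 28 CG pairs and 3 GC boxes, TIMP1 had 2 GC boxes and MMP14 had 1. An AP-1 motif (TGANTCA, both strands) stood in 1 of the 9 windows, that of PLAUR, and in 7.7% of all windows. The TATA motif (TATAAA, both strands) stood in 0 of the 9 and in 11.5% of all windows.

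In the KMT5C tumours 1 protease, 2 inhibitors and the proteoglycan were lower, while the other 5 genes were not called. CTSL, SERPINE2, TIMP3 and SPOCK1 passed the threshold of the edgeR fit over all 17947 genes (adjusted p under 0.05), each with all 5 KMT5C tumours below all 5 CTRL tumours. This fit called 2.96% of all genes, 1.9% as lower and 1.06% as higher, and arms that did not overlap were found for 5.7% of all genes, 3.26% with KMT5C lower and 2.44% with KMT5C higher. These calls were known when the genes were chosen, so nothing is read from the count of 4 in 9. The median log2 fold change was -0.08 over the 9 genes and 0.00 over all genes.

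Among the proteases, CTSL was the one with separate arms. It was at 26.0, 29.7, 29.3, 29.03 and 24.98 CPM in CTRL tumours 801, 803, 804, 813 and 815. In KMT5C tumours 807, 809, 816, 820 and 823 it was at 15.2, 14.2, 16.8, 13.2 and 20.3 CPM. The highest KMT5C tumour, 823, thus stayed under the lowest CTRL tumour, 815, and the log2 fold change was -0.80 (SE 0.11). CTSL has related copies in the genome, and the counting of reads that fit several places is not stated in the material used.

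MMP14, the membrane collagenase, stood highest with PLAU per length and was not called. It was at 1124, 1135, 1295, 1593 and 1255 CPM in CTRL tumours 801, 803, 804, 813 and 815. In KMT5C tumours 807, 809, 816, 820 and 823 it was at 1290, 1498, 1371, 1498 and 1443 CPM. The arms overlapped, with CTRL 813 the highest of all 10 tumours, and the log2 fold change was 0.15 (SE 0.097).

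PLAU, the urokinase, was at 808.4, 849, 807.5, 648 and 751 CPM in CTRL tumours 801, 803, 804, 813 and 815. It was at 938.5, 861.5, 908, 819.5 and 811 CPM in KMT5C tumours 807, 809, 816, 820 and 823. Again the arms overlapped, and CTRL 813, the tumour highest in MMP14, was the lowest in PLAU (log2 fold change 0.17, SE 0.083). Its receptor PLAUR lay within 174 to 206 CPM in the control arm and 161.5 to 197 CPM in the KMT5C arm (-0.08, SE 0.073), so enzyme and receptor were both without a call.

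Of the inhibitors, TIMP3, a matrix-bound inhibitor of metalloproteinases, and SERPINE2, also called protease nexin-1, were lower. TIMP3 was at 294, 321, 295, 262 and 283 CPM in CTRL tumours 801, 803, 804, 813 and 815. In KMT5C tumours 807, 809, 816, 820 and 823 it was at 209.8, 193, 241, 233.5 and 169 CPM, all under CTRL 813, the lowest control. The log2 fold change was -0.48 (SE 0.092), the smallest of the 4 called differences.

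SERPINE2 was at 92.9, 99.99, 106, 119.5 and 96.0 CPM in CTRL tumours 801, 803, 804, 813 and 815. It was at 68.3, 76.0, 72.3, 63.7 and 57.3 CPM in KMT5C tumours 807, 809, 816, 820 and 823. No KMT5C tumour reached the lowest control, and the log2 fold change was -0.61 (SE 0.087).

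TIMP1 and TIMP2, the soluble members of the family, were not called. TIMP1 ranged from 203 to 325 CPM in the control arm and from 231 to 321 CPM in the KMT5C arm, with a log2 fold change of 0.01 (SE 0.12). TIMP2 ranged from 322.5 to 440.1 CPM and from 380 to 441 CPM (0.14, SE 0.086). The arms of both overlapped over most of their range, so the 3 TIMP genes did not move as a set.

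SPOCK1 was at 142, 117, 109.8, 126 and 153.6 CPM in CTRL tumours 801, 803, 804, 813 and 815. In KMT5C tumours 807, 809, 816, 820 and 823 it was at 86.0, 76.7, 72.1, 94.1 and 85.6 CPM. All 5 KMT5C tumours lay below the lowest control, 804, and the log2 fold change was -0.65 (SE 0.096).

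**Figure D1:**
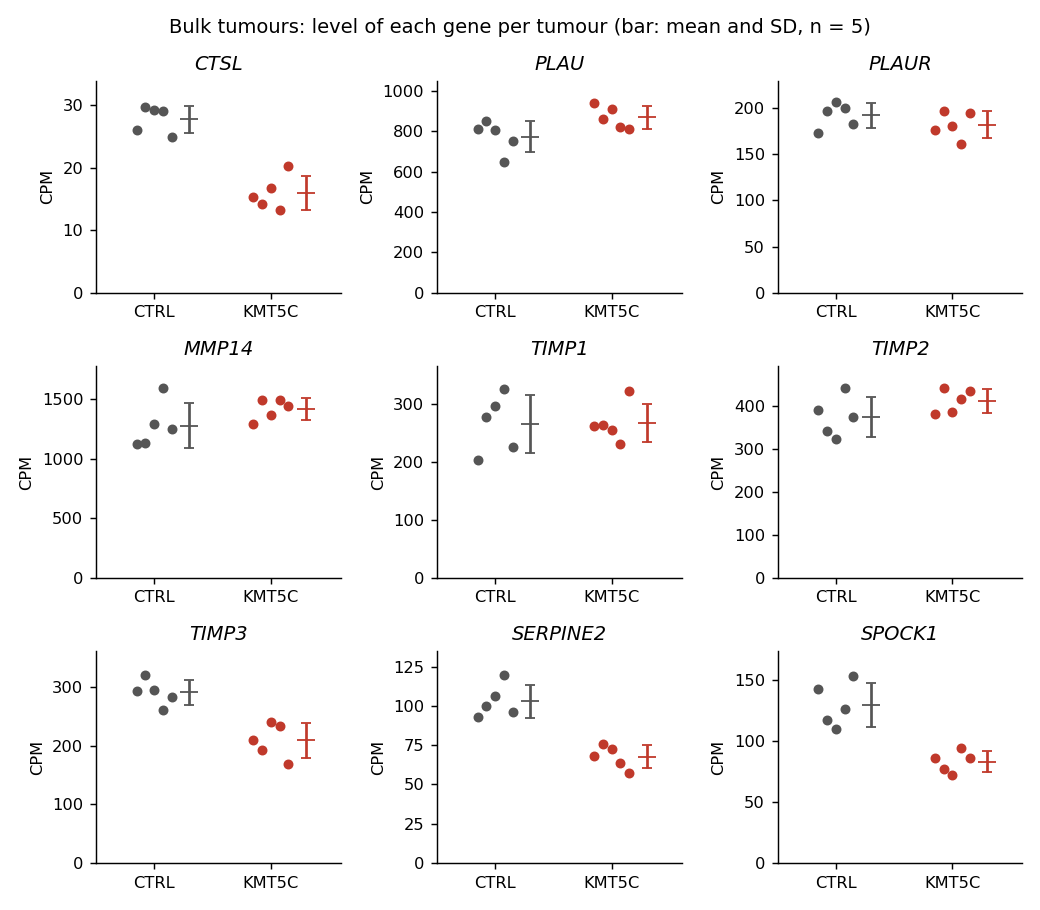
Level of each of the 9 genes in the bulk tumours, in CPM from 0 on a linear axis; dots are tumours (CTRL grey, KMT5C red) in order of tumour number, and bars give the mean and SD (n = 5 per arm). CTSL, TIMP3, SERPINE2 and SPOCK1 show arms that do not overlap, and the other 5 genes overlap.

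The 4 called genes kept their call in all 10 fits that each left out 1 tumour, with log2 fold changes of -0.91 to -0.74 for CTSL, -0.65 to -0.54 for SERPINE2, -0.53 to -0.41 for TIMP3 and -0.70 to -0.58 for SPOCK1. The genes were chosen as lower in these same tumours, so the kept calls are no separate support. With the level of the skeletal muscle markers as a covariate, only SERPINE2 was still called (-0.76). The fold changes of CTSL (-0.75), TIMP3 (-0.48) and SPOCK1 (-0.49) were no longer past the threshold, and that fit called 38 genes in all. The SE rose from 0.107 to 0.165 for CTSL and from 0.092 to 0.148 for TIMP3. The covariate was the mean log2 CPM of the 12 markers tested, and its values per tumour are not given here. The summed CPM of the 15 markers measured did not overlap between the arms. Muscle content and the KMT5C arm can therefore not be told apart. Without the 2 KMT5C tumours highest in muscle markers, TIMP3 was not called (-0.49), and CTSL (-0.67), SERPINE2 (-0.64) and SPOCK1 (-0.68) were.

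Levels were compared between genes per kilobase of exon (GENCODE 29, all exons of a gene merged). In the CTRL tumours MMP14 (287 ± 42.5 CPM per kilobase) and PLAU (262 ± 26.4) stood highest, with overlapping tumours (SD, n = 5). TIMP1 followed at 172 ± 32.6, then TIMP2 at 66.3 ± 8.09 and TIMP3 at 63.2 ± 4.65, PLAUR at 43.1 ± 3.00, SPOCK1 at 20.9 ± 2.89, CTSL at 11.8 ± 0.913 and SERPINE2 at 11.6 ± 1.18 CPM per kilobase. The neighbours TIMP2 and TIMP3, and CTSL and SERPINE2, did not differ beyond their spread in CTRL tumours. In the KMT5C tumours TIMP2 (67.5 to 78.3 CPM per kilobase) lay wholly above TIMP3 (36.7 to 52.4), and the order of the other neighbours down to SPOCK1 was the same by the means.

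Proteases and inhibitors were then set against each other within each tumour, as the mean log2 CPM of CTSL, PLAU and MMP14 minus that of TIMP1, TIMP2, TIMP3 and SERPINE2. This difference was 0.37 ± 0.063 in CTRL tumours (0.27 to 0.42) and 0.44 ± 0.084 in KMT5C tumours (0.38 to 0.58; SD, n = 5), and the arms overlapped. The highest CTRL tumour was at 0.42, and 3 of 5 KMT5C tumours lay above it, with 823 the highest at 0.58. CTSL on the protease side and TIMP3 and SERPINE2 on the inhibitor side were all lower in the KMT5C arm.

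In the rest of the protease system 4 genes were called in the bulk fit. Of 121 other proteases, inhibitors and receptors listed by function, 90 were tested, with a median log2 fold change of 0.03. Of these 90, 3 fell and 1 rose, beside 1.9% called lower and 1.06% called higher among all genes. Nothing is read from so small a count. The lists were made with earlier results of these data known. Adjusted p-values of listed genes, here and below, therefore describe the fit and are no separate support. SERPINA1, the main serine protease inhibitor of blood plasma, fell from 4.64 ± 1.25 to 2.15 ± 0.644 CPM (SD, n = 5), a log2 fold change of -1.12 with SE 0.22 and an edgeR adjusted p of 0.00944. CTSV, a cathepsin closely related to CTSL, fell from 1.499 ± 0.319 to 0.879 ± 0.153 CPM (-0.77, SE 0.20, edgeR adjusted p = 0.0493). MMP16, another membrane-type metalloproteinase, fell from 2.96 ± 0.533 to 1.65 ± 0.393 CPM (-0.85, SE 0.18, edgeR adjusted p = 0.019), although its arms overlapped. SPINT1, an inhibitor of the serine proteases that activate hepatocyte growth factor, rose from 1.49 ± 0.213 to 2.61 ± 0.440 CPM (0.81, SE 0.16, edgeR adjusted p = 0.0111). All 4 had arm means below 5 CPM, under those of all 9 members. None of the 90 was called with the muscle marker covariate, in a fit that called 38 of 17947 genes. DESeq2, which tested more genes, called 9 of 115 such genes, beside 1097 of 37924 genes in all.

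PLAT, MMP2 and MMP1, which act beside the 9 genes, were not called. PLAT, the tissue-type plasminogen activator, had 261.5 ± 34.4 CPM in the control arm and 331 ± 38.0 CPM in the KMT5C arm (SD, n = 5), a log2 fold change of 0.34 with SE 0.099 and an edgeR adjusted p of 0.075. MMP2, which MMP14 activates, had 17.3 ± 4.94 and 18.8 ± 2.86 CPM (0.12, SE 0.16), and MMP1, an interstitial collagenase, 127.8 ± 27.0 and 161 ± 102 CPM (0.33, SE 0.43). MMP1 was uneven within the KMT5C arm, where 2 tumours, 809 and 823, were at 269 and 274 CPM and the other 3 between 76.1 and 108 CPM.

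The remaining partners had log2 fold changes between -0.17 and 0.13. These were the cathepsins CTSB (0.07) and CTSD (-0.16), the cysteine protease inhibitors CST3 (-0.08) and CSTB (-0.03), the protease inhibitors RECK (0.10) and TFPI2 (0.13), the protease-activated receptor F2RL1 (0.03), and the testicans SPOCK2 (0.11) and SPOCK3 (-0.17). SPOCK2 and SPOCK3 were at 0.823 ± 0.189 and 3.15 ± 0.571 CPM in CTRL tumours (SD, n = 5), so SPOCK1 was the testican chiefly expressed. Of 26 matrix proteins that such proteases cut, 1 fell, beside 1.9% called lower among all genes. This was LAMA5, a laminin chain of basement membranes, which went from 358 ± 52.4 to 243 ± 41.8 CPM (-0.56, SE 0.12, edgeR adjusted p = 0.0171).

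In the single-cell tumours SPOCK1 was lower with RKIP in every experiment, and no other gene of the 9 had separate arms. Counts were summed over the cells of a tumour and the experiment was a block in the fit. SPOCK1 was at 50.2, 40.9 and 55.1 CPM in CTRL tumours 1, 2 and 3 and at 31.1, 16.5 and 24.2 CPM in RKIP tumours 1, 2 and 3. The highest RKIP tumour lay below the lowest CTRL tumour, and the log2 fold change was -1.06 (SE 0.25). Without the cell richest in SPOCK1 in each tumour, the CTRL tumours were at 42.8, 38.7 and 51.1 CPM and the RKIP tumours at 26.6, 13.8 and 22.6 CPM, still without overlap.

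The edgeR fit over 14528 genes did not call this difference. It called 1 gene, the transgene (0.00688% of the genes tested), and 582 genes, or 4.01%, had an unadjusted p under 0.05, among them SPOCK1 and TIMP2 of the 9. DESeq2 with the same block called 60 genes (0.4%), 27 of them lower (0.18%), and SPOCK1 was the one gene of the 9 among these. Results of this comparison were known when the 9 genes were chosen, so nothing is read from their passing either threshold. Arms that did not overlap were found for 4.47% of all genes with RKIP lower and 4.43% with RKIP higher, and 5.55% had a log2 fold change at or below that of SPOCK1. Without 1 experiment in turn, the log2 fold change of SPOCK1 was -1.25 to -0.94. On the chips the 2 arms occupied different columns in every experiment, so chip column and arm cannot be told apart.

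The arms of the proteases and of PLAUR overlapped. CTSL was at 12.9, 20.3 and 7.88 CPM in CTRL tumours 1, 2 and 3 and at 18.1, 17.4 and 14.7 CPM in RKIP tumours 1, 2 and 3 (log2 fold change 0.39, SE 0.38). In CTRL tumour 1, 1 cell held 274 of its 371 CTSL counts, and without that cell the tumour was at 3.41 CPM. MMP14 was at 162, 132.5 and 86.1 CPM in the CTRL tumours and at 62.1, 81.7 and 106.5 CPM in the RKIP tumours (-0.59, SE 0.32). It was lower with RKIP in experiments 1 and 2 and higher in experiment 3, and without experiment 3 its log2 fold change was -1.04, against -0.19 without experiment 1.

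PLAU was at 87.1, 169 and 109 CPM in CTRL tumours 1, 2 and 3 and at 121, 155 and 139.7 CPM in RKIP tumours 1, 2 and 3 (0.24, SE 0.17). PLAUR was at 358, 265 and 321 CPM and at 363, 320 and 245 CPM in the same order (-0.03, SE 0.15). The difference of PLAUR turned to 0.16 with cells scaled singly and to 0.14 without experiment 3. Neither gene had the same direction in all 3 experiments.

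Among the inhibitors, TIMP2 was higher with RKIP in 3 of 3 experiments, a pattern that 13.5% of all genes showed. It was at 267, 165 and 139 CPM in CTRL tumours 1, 2 and 3 and at 320, 191.5 and 185 CPM in RKIP tumours 1, 2 and 3, with arms that overlapped (log2 fold change 0.30, SE 0.12). The direction in experiment 1 rested on 1 cell of RKIP tumour 1 with 3745 of its 10677 TIMP2 counts: without the cell richest in TIMP2 in each tumour, CTRL tumour 1 was at 244 CPM and RKIP tumour 1 at 209 CPM, and TIMP2 was higher with RKIP in 2 of 3 experiments. That alternative was chosen after seeing the data. TIMP1 was at 1949, 1694 and 1483 CPM in the CTRL and 1836, 1665 and 1781 CPM in the RKIP tumours (0.05, SE 0.095). The difference of TIMP1 had the opposite sign when cells were scaled singly (-0.12) and without experiment 3 (-0.06), as had that of TIMP3 (-0.13 and -0.01).

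TIMP3 and SERPINE2, both lower in the KMT5C tumours, were not called in the RKIP tumours. TIMP3 was at 210.3, 187 and 179 CPM in CTRL tumours 1, 2 and 3 and at 219.8, 177 and 197 CPM in RKIP tumours 1, 2 and 3 (0.04, SE 0.12). SERPINE2 was at 127, 88.6 and 125 CPM in the CTRL and at 97.7, 98.6 and 80.5 CPM in the RKIP tumours (-0.29, SE 0.20), lower in 2 of 3 experiments. SPOCK1 was therefore the one gene of the 9 whose tumours lay wholly below their controls in both experiments, which used different constructs, controls and assays; whether the 2 differences are of equal size was not tested.

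**Figure D2:**
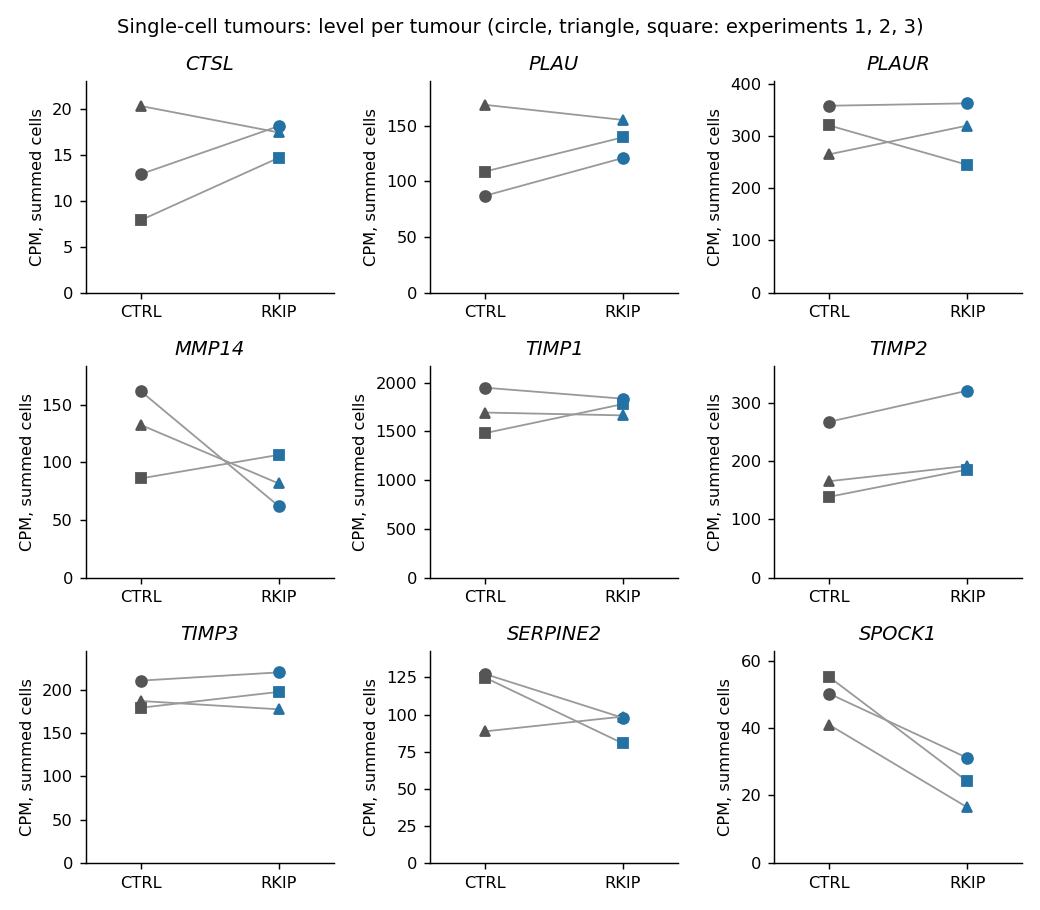
Level of each of the 9 genes in the single-cell tumours, in CPM of the summed cells from 0 on a linear axis; lines join the CTRL (grey) and RKIP (blue) tumours of an experiment. SPOCK1 runs downward on all 3 lines, from 40.9 to 55.1 CPM in CTRL to 16.5 to 31.1 CPM in RKIP tumours, and the lines of the other genes except TIMP2 run in mixed directions.

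**Figure D3:**
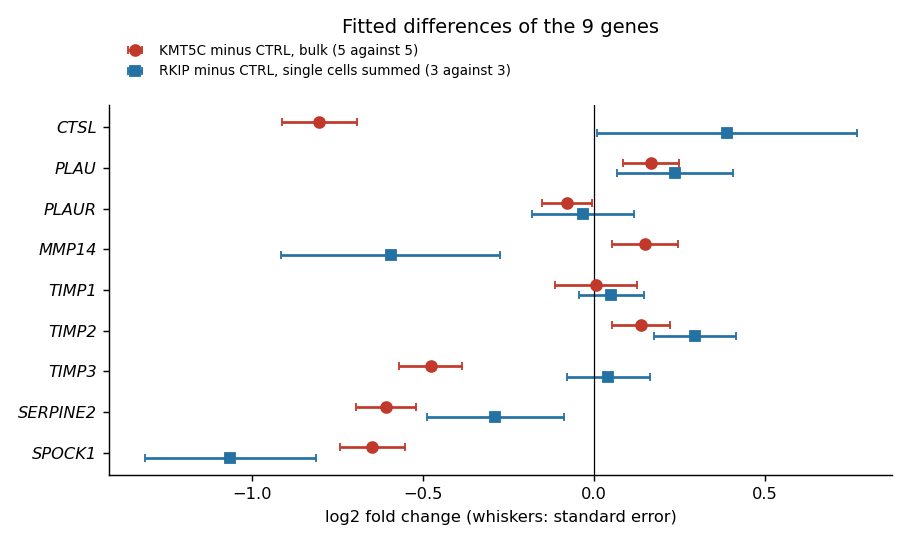
Fitted log2 fold changes of the 9 genes with standard errors, for KMT5C minus CTRL in the bulk tumours (red circles, n = 5 per arm) and RKIP minus CTRL in the summed single cells (blue squares, n = 3 per arm). SPOCK1 stands at -0.65 and -1.06, and CTSL at -0.80 and 0.39.

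The other protease genes gave no edgeR call in the RKIP comparison. Of 64 tested, 0 passed edgeR and 4 had an unadjusted p under 0.05, beside 4.01% of all genes. DESeq2 called 2, 1 lower and 1 higher, beside 0.4% of all genes. RECK, a membrane-anchored inhibitor of metalloproteinases, was at 0.104, 2.08 and 11.5 CPM in CTRL tumours 1, 2 and 3 and at 16.9, 13.8 and 16.6 CPM in RKIP tumours 1, 2 and 3 (log2 fold change 3.04, SE 1.3, edgeR adjusted p = 0.973), with the 3 CTRL tumours far apart. CSTB, an intracellular inhibitor of cysteine cathepsins, was at 161, 155 and 198 CPM in the CTRL and 153, 143.5 and 122 CPM in the RKIP tumours (-0.30, SE 0.17, edgeR adjusted p = 0.973). MMP1 was at 236 CPM in RKIP tumour 1, 35 CPM in RKIP tumour 2 and 12.9 CPM in RKIP tumour 3, against 18.3 to 21.5 CPM in the CTRL tumours.

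PLAT had a log2 fold change of -0.10 (SE 0.17), CTSB of -0.11 (SE 0.12), CTSD of -0.24 (SE 0.18), CST3 of 0.08 (SE 0.14), TFPI2 of 0.14 (SE 0.35), F2RL1 of 0.09 (SE 0.30) and SPOCK3 of -0.89 (SE 0.83), all with overlapping arms. MMP2, SPOCK2 and SPINT1 were not analysed here in single cells. Of 21 matrix proteins tested, 0 were called by edgeR and 1 had an unadjusted p under 0.05, beside 4.01% of all genes.

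The assays placed the same genes at different levels, and the tables were normalized separately, so no test was made between them. MMP14 was at 1124 to 1593 CPM in bulk CTRL and at 86.1 to 162 CPM in single-cell CTRL tumours, PLAU at 648 to 849 and at 87.1 to 169 CPM, and TIMP1 at 203 to 325 and at 1483 to 1949 CPM. The protease minus inhibitor difference was -2.33 ± 0.492 in single-cell CTRL and -2.34 ± 0.309 in RKIP tumours (SD, n = 3), with overlapping arms. Library preparation, weeks of growth and the removal of mouse cells differ between the tables and cannot be told apart.

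To see how the genes were spread over cells, each cell with at least 20000 counts was thinned to 20000 counts, which kept 1481 of 1568 cells. The 87 shallower cells left out were 6, 21 and 21 in CTRL tumours 1, 2 and 3 and 6, 18 and 15 in RKIP tumours 1, 2 and 3. SPOCK1 had a count in 21.6%, 27.6% and 33.8% of the cells of CTRL tumours 1, 2 and 3 with exact 95% binomial intervals of 16.6% to 27.3%, of 22.1% to 33.7% and of 27.8% to 40.2%. In RKIP tumours 1, 2 and 3 it had a count in 12.7%, 14.4% and 20.3% of cells (8.90% to 17.4%, 10.4% to 19.4% and 15.4% to 26.0%). The RKIP shares all lay under the CTRL shares. Without thinning they were 19.5%, 20.8% and 35.9% against 32.8%, 40.4% and 53.5%, lower in each experiment but overlapping, with RKIP tumour 3 above CTRL tumour 1. The intervals cover counting error only. How many of all genes have shares apart in this way was not computed. SPOCK1 was chosen with its lower level in these tumours known, so the lower share is no separate support.

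Within the cells that had a SPOCK1 count, the median count was equal between the arms of each experiment, and the mean differed. The median was 3, 2 and 2 counts in CTRL tumours 1, 2 and 3 and likewise 3, 2 and 2 in RKIP tumours 1, 2 and 3. The means were 5.63, 3.21 and 3.79 in the CTRL and 4.82, 2.51 and 2.73 in the RKIP tumours. In experiment 1 the lower mean rested on 1 cell of CTRL tumour 1 with 106 counts: without the richest cell of each tumour the means were 3.67, 3.02 and 3.52 in the CTRL and 4.38, 2.25 and 2.58 in the RKIP tumours. Cells with 4 or more counts made up 7.1%, 6.9% and 11.4% of the CTRL and 6.2%, 1.6% and 5.8% of the RKIP tumours. Fewer cells with a count were found in all 3 experiments, and a lower mean in those cells, without the richest cells, in experiments 2 and 3. Tumours had means of 0.363 to 1.28 SPOCK1 counts per thinned cell, so medians of 2 to 3 had little room to fall. In counts this sparse, fewer expressing cells and a lower level per cell cannot be told apart.

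**Figure D4:**
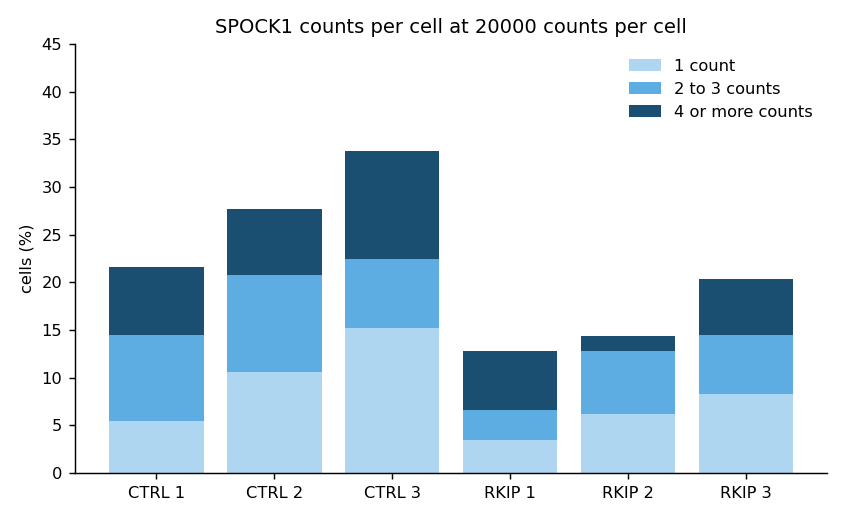
Share of cells with 1, with 2 to 3 and with 4 or more SPOCK1 counts in each single-cell tumour, in percent of cells thinned to 20000 counts; cells with 0 counts fill the rest. The bars reach 21.6% to 33.8% in the CTRL and 12.7% to 20.3% in the RKIP tumours.

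The other genes ranged from sparse to nearly universal. TIMP1 had a count in 91.5% to 100% of the cells of a tumour and PLAUR in 64.7% to 83.6%. TIMP2 was counted in 64.3% to 86.3% of cells and TIMP3 in 56.9% to 73.8%. PLAU (43.6% to 57.0%), SERPINE2 (39.4% to 54.3%) and MMP14 (33.5% to 55.3%) were counted in fewer cells, and CTSL in 4.15% to 17.1%. For CTSL, TIMP3 and SERPINE2, the arms overlapped in this share, as they did for PLAU, PLAUR, TIMP1 and TIMP2. MMP14 was counted in 49.0%, 55.3% and 51.5% of cells in CTRL tumours 1, 2 and 3 and in 33.5%, 44.9% and 49.4% in RKIP tumours 1, 2 and 3, and the share in RKIP tumour 3 was above that in CTRL tumour 1.

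**Figure D5:**
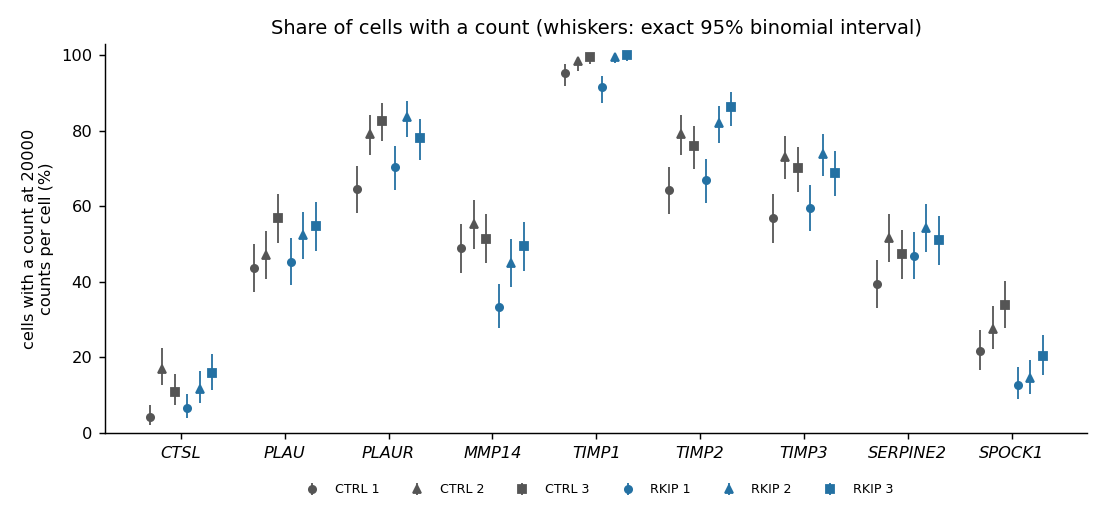
Share of cells with a count of each gene at 20000 counts per cell, in percent with exact 95% binomial intervals, for the 3 CTRL (grey) and 3 RKIP (blue) tumours. SPOCK1 is the gene whose RKIP tumours all lie below its CTRL tumours, and TIMP1 is counted in 91.5% or more of cells everywhere.

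The tenth of cells richest in MMP14 held 54.9% to 77.9% of its counts in a tumour, for SPOCK1 this share was 70% to 95.6%, and for TIMP1, the most evenly spread, it was 28.8% to 42.7%. Single cells reached 205 MMP14 counts of 20000 in CTRL tumour 1, 369 TIMP2 counts in RKIP tumour 1 and 153 SERPINE2 counts in RKIP tumour 2. Genes with few counts give a high share by counting alone, so the shares of SPOCK1 and those of CTSL, 82.7% to 100%, go with their low levels. The low share of TIMP1 likewise goes with its high level.

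Variation between cells beyond the trend with mean level was compared with limma over 10177 genes, of which 0 were called (0%) and 387, or 3.8%, had an unadjusted p under 0.05, with none of the 9 genes among them. The residual of the log2 squared coefficient of variation differed by -0.81 (SE 0.52) for SPOCK1, by -0.90 (SE 0.46) for MMP14 and by 1.05 (SE 0.60) for PLAU, RKIP minus CTRL. The other 6 genes differed by -0.32 to 0.62. TIMP1 was more variable than its level predicts in all 6 tumours, with residuals of 0.53 to 1.76, and its mean residual was at percentile 97.5 of all genes.

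Per cell, inhibitor counts outnumbered protease counts. The median cell of CTRL tumours 1, 2 and 3 held 2, 3 and 3 counts of CTSL, PLAU and MMP14 together and 39, 36.5 and 28 counts of the 4 inhibitors. In RKIP tumours 1, 2 and 3 these were 1, 2 and 2 protease counts and 30.5, 37 and 35 inhibitor counts. Proteases exceeded inhibitors in 2.95% to 6.10% of CTRL cells and in 2.90% to 4.61% of RKIP cells. These sums are dominated by TIMP1 and are not per length, so they describe counts and not amounts of protein.

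Across cells of a tumour the 9 genes were only weakly related. Of the 36 pairs, the highest median Spearman correlation over the 6 tumours was 0.17 for TIMP3 with SERPINE2 (0.017 to 0.29), followed by 0.14 for TIMP1 with SERPINE2 (0.015 to 0.26) and 0.14 for TIMP1 with TIMP2. PLAU and PLAUR had a median of 0.11 (-0.017 to 0.30), and CTSL and SPOCK1 0.024. The cells share library and chip, and in sparse counts such values are a description.

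The genes whose counts ran most like those of a member were sought among 1673 genes counted in at least 50% of thinned cells, as the highest median Spearman correlation over the 6 tumours (237 to 260 cells each). For TIMP1 they included CST3, the secreted cystatin, at 0.33 (0.20 to 0.48) and the lysosomal PSAP at 0.26. For TIMP3 they were the adhesion molecule CD58 at 0.22, the collagen chain COL6A1 at 0.21 (0.17 to 0.41) and CD74 at 0.20, and for TIMP2 they were ECE1, COL6A1 and CD59, each at 0.17. For PLAUR they were PTTG1 at 0.24, PLEK2 at 0.22 and RER1 at 0.22. The other 5 members were counted in too few cells for this search.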

How the data were processed

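Bulk RNA sequencing of 10 tumours and single-cell RNA sequencing (Fluidigm C1 HT) of 6 tumours were analysed. Both deposited tables hold raw, unscaled gene counts (bulk by tumour, C1 by cell). The authors trimmed reads with Trim Galore, aligned them with STAR and used featureCounts for counting. This is per the submitters' processing notes, which also name hg38 and hg19 without their roles; strand setting, use of molecular identifiers and removal of mouse reads are not given in the sources used here. Symbols came from a table of current gene names (51996 of 57820 identifiers), and 390 single-cell names with a dot for a hyphen were restored from GENCODE 29. A cell's arm and experiment were read from the start and ending of its column name. The experiment numbers 1, 2 and 3 are arbitrary, since no label ties an ending to a replicate. The experiments also share 551 of 577 names of chip positions, which identify places on a chip and not cells. A total of 1 cell with under 1000 detected genes was left out.

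Bulk counts, and single-cell counts summed per tumour with the experiment as a block, were tested with edgeR 4.0.16 (R 4.3.3; filterByExpr, TMM, quasi-likelihood, robust), two-sided with Benjamini-Hochberg adjustment over all genes and a threshold of 0.05. Standard errors were derived from the F statistic. Deviations from the arm means correlated at 0.188, 0.0705 and 0.19 between same-ending tumours and at most at 0.0348 between others, so the pairing rests on the column names and the design. Variation was tested with limma 3.58.1 on cells thinned to 20000 counts, keeping genes whose thinned mean reached 0.1. DESeq2 1.42.0 was an alternative. The fits were tested on simulated data.

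The members and lists were chosen with earlier results of these data known. Named were the 9 genes, other protease genes past 0.05 (at most 15 per comparison), 14 fixed partners, matrix proteins past 0.05 and, for each member counted in at least 50% of thinned cells, the 3 genes most like it. A few genes that this rule names are not reported here.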

Additional observations from a re-analysis of the deposited data

How the results depend on the processing

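In the bulk comparison 531 genes were called, 341 of them lower and 190 higher, and 4 of the 9 members and 4 of 90 other protease genes were among them. DESeq2 called 1097 of 37924 genes (597 lower, 500 higher) and 9 of 115 other protease genes. With no filter, 801 of 37924 genes and 8 of 115 other protease genes were called. The muscle marker covariate gave 38 genes, 1 member and 0 other protease genes, and the summed CPM of the muscle markers did not overlap between the arms. Without KMT5C tumours 809 and 820, those with the most muscle marker signal, an alternative chosen after seeing the data, gave 166 genes. Leaving out each tumour gave 337 to 681 genes, 4 members each time and 2 to 7 other protease genes: 337 without KMT5C 820, 344 without KMT5C 807, 351 without CTRL 803, and for the other protease genes 2 without KMT5C 807 and 7 without CTRL 813. In the single cells 1 gene was called with the replicate block and 0 with no replicate block, 0 with each cell scaled singly, 60 by DESeq2, which also called 1 member and 2 other protease genes, and 0 to 1 when an experiment was left out. The block changed the call of no member. No called member changed sign; of 207 recomputed fold changes, 5 moved by more than the SD between tumours, among them MMP14 in bulk to -0.05 with the covariate. The cause of these shifts was not tested. Variation had 0 calls in every alternative. None of the 27 genes named in bulk had an outlying tumour in either arm. With 3 tumours per arm, a missed threshold in the RKIP comparison does not show that levels were alike. Without the cell richest in a gene in each tumour, TIMP2 was higher with RKIP in 2 in place of 3 experiments, and the count of experiments was the same for the other 8 members.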
